A study of Homo sapiens with 6 samples.

Results

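Collagens are the chains of the triple-helical proteins that make up much of the extracellular matrix. The genes described here are the rows whose symbol is COL, a type number, the letter A and a chain number, and there were 44 of them among the 17452 genes listed. The libraries came from MDA-MB-231, an established human line of triple-negative breast cancer, and per the labels 3 were from control cells (siControl) and 3 from cells with PHF20L1 knocked down by siRNA (siPHF20L1). Small interfering RNAs guide the cleavage of transcripts that they match. The PHF20L1 protein is a reader of lysine methylation in the nucleus, and the series asks which genes depend on it. All 6 libraries shared the cell line, its L-15 medium with serum and a lipid transfection reagent, for which a pair of products is named without saying which was used where. No source used here gives the siRNA sequences or the time of harvest.

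A collagen chain carries long runs in which glycine returns at a fixed spacing of 3 residues, and 3 such chains wind around each other into a triple helix. Fibrillar collagens form the tension-bearing fibrils of connective tissue, type IV collagens form the network of the basement membrane under epithelia and around vessels, and short-chain collagens form hexagonal lattices, as in the membrane beneath the corneal endothelium. Fibril-associated collagens (FACIT) decorate fibrils, type VI collagens assemble into beaded filaments, type VII anchors the epidermal basement membrane, transmembrane collagens cross the cell surface, and multiplexins sit in basement membranes and release angiogenesis inhibitors such as endostatin. By these classes the 44 genes were 11 fibrillar, 6 type IV, 2 multiplexin, 3 short-chain, 10 FACIT, 5 type VI, 1 type VII, 4 transmembrane and 2 other genes.

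The repeat that defines the family can be read in the coding sequences, and it shows how the classes differ. In the longest coding sequence of each gene in GENCODE release 29, the longest unbroken run of glycine codons (GGN) spaced 3 codons apart was 216 to 343 triplets in the 11 fibrillar genes, against 38 to 66 in the 6 type IV genes, 58 to 59 in the 3 short-chain genes and 43 to 54 in the 4 transmembrane genes. COL1A1 held 2 runs, the longer of 338 triplets. COL4A1 and COL4A2 were instead broken into 22 and 24 runs, which together covered 77.3% and 74.1% of their codons. In the short-chain gene COL8A1, 9 runs covered 55.6% of 744 codons. COL12A1, a FACIT gene with long non-collagenous parts, had 8.03% of its codons in such runs. The following stretches of 8 triplets are shown for the genes on which the results turn and for COL1A1 as the fibrillar reference, 5′ to 3′ along the coding strand, with the glycine codons in capitals. They lie at coding bases 1069 to 1140 of COL8A1, 127 to 198 of COL4A1, 2344 to 2415 of COL4A2, 1735 to 1806 of COL13A1 and 535 to 606 of COL1A1.
COL8A1: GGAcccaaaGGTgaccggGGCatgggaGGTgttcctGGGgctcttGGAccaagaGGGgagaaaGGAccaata
COL4A1: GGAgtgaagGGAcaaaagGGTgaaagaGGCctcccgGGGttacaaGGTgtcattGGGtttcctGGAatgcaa
COL4A2: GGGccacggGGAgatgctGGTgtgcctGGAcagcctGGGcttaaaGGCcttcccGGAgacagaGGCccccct
COL13A1: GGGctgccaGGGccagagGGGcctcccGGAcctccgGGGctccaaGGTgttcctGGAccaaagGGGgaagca
COL1A1: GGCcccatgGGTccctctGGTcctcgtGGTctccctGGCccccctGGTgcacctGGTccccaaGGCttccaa
COL4A3BP, whose symbol begins like a collagen but which encodes a ceramide transporter, has no such run and is not a member. Its values were 13.07, 10.94 and 10.79 FPKM in siControl and 12.96, 11.23 and 11.76 FPKM in siPHF20L1.

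Values are FPKM, fragments scaled to transcript length and library size, so levels of different genes can be set side by side. They are given per library in the order of the replicate numbers 1, 2 and 3, or as mean ± SD (n = 3 libraries per group). Log2 differences are siPHF20L1 minus siControl on log2(FPKM + 1), with the standard error (SE) and the Benjamini-Hochberg adjusted p of limma, a linear model fitted here to all 11560 genes that reached 1 FPKM in at least 3 libraries. The labels name no separate cultures behind the 3 libraries of a group, so that p-values cover no more than the spread between these samples, possibly a technical one. In such bulk samples, fewer cells of a type and less RNA per cell cannot be told apart. The steps of the low values put the depth near 17075000 to 17575000 fragments per library, and a lower depth was not excluded. PHF20L1 (Entrez 51105) was at 15.75, 12.48 and 12.73 FPKM in siControl and at 2.67, 2.31 and 2.74 FPKM in siPHF20L1, so every library followed its label. ESR1 was at 0 in all libraries and PGR at no more than 0.05 FPKM, the hormone receptors that triple-negative cells lack, while ERBB2 was at 25.9 FPKM in siControl libraries. The 5 markers of this line (VIM, CD44, EGFR, AXL and CAV1) all exceeded 1 FPKM, with summed levels of 2476.61 to 2498.69 FPKM in siControl and 1592.56 to 1597.49 FPKM in siPHF20L1 libraries. VIM fell from 1624 to 1015 FPKM, AXL from 499 to 255 FPKM and CAV1 from 154 to 119 FPKM (limma, adjusted p = 2.86e-05, 2.46e-06 and 0.000364). CD44 and EGFR did not pass an adjusted p of 0.05 (limma, adjusted p = 0.865 and 0.662).

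Of the 44 collagen genes, 15 reached 1 FPKM in at least 3 libraries and are called expressed here. They were the fibrillar COL5A1, COL1A1 and COL27A1, the type IV genes COL4A2, COL4A1 and COL4A5, the multiplexin COL18A1, the short-chain COL8A1, the FACIT genes COL12A1 and COL9A2, the type VI genes COL6A1 and COL6A2, the type VII gene COL7A1, and the transmembrane COL13A1 and COL17A1. COL17A1 reached the minimum through the siPHF20L1 libraries alone. Another 5 genes had their highest library between 0.24 and 0.74 FPKM, 19 did not exceed 0.16 FPKM, and 5 (COL2A1, COL9A1, COL21A1, COL23A1 and COL28A1) were listed at 0 in all 6 libraries. With a mean of at least 0.5 FPKM in either group as the minimum, 17 genes would count as expressed, and with a mean of at least 2 FPKM, 13.

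The genes of classical connective tissue fibrils were mostly at or near 0. COL1A2, the partner chain of COL1A1 in type I collagen, was at 0 in 5 libraries and at 0.01 FPKM in siPHF20L1 2. COL3A1, the chain of type III collagen, did not exceed 0.04 FPKM, and COL11A1 and COL5A3 did not exceed 0.02 and 0.01 FPKM. The most abundant collagen transcripts in siControl libraries came instead from the type IV chain COL4A2, the multiplexin COL18A1 and the transmembrane COL13A1.

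**Figure D1:**
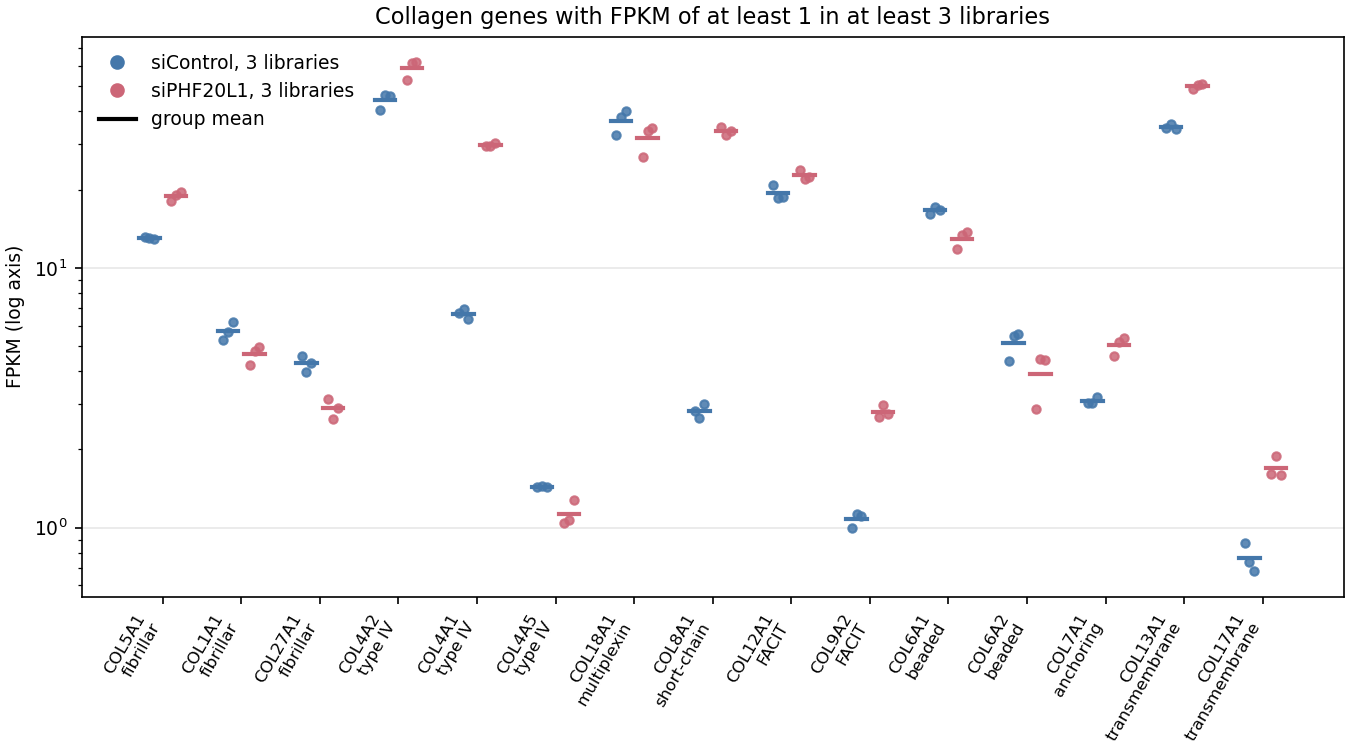
FPKM (log axis) of the 15 expressed collagen genes in each library, with siControl and siPHF20L1 points side by side and a line at each group mean. COL8A1 lies between 2.65 and 2.98 FPKM in siControl and between 32.56 and 34.71 FPKM in siPHF20L1 libraries, the widest separation among these genes.

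In siControl libraries, COL4A2 ranked first at 44.1 ± 3.27 FPKM, above COL18A1 at 36.8 ± 3.99 and COL13A1 at 34.9 ± 0.802, whose library ranges overlapped each other. COL12A1, COL6A1, COL5A1 and COL4A1 followed at 19.4, 16.7, 13.04 and 6.66 FPKM, each apart from its neighbours in range. COL1A1, COL6A2 and COL27A1 formed a run of overlapping neighbours at 5.72, 5.13 and 4.30 FPKM. COL7A1, COL8A1, COL4A5, COL9A2 and COL17A1 closed the order at 3.08, 2.81, 1.44, 1.08 and 0.763 FPKM. In siPHF20L1 libraries COL4A2 was again first at 58.8 ± 5.07 FPKM and COL13A1 came next at 50.1 ± 1.12, with COL8A1, COL18A1 and COL4A1 as overlapping neighbours after it. COL8A1 moved from rank 12 to rank 3 and COL4A1 from rank 7 to rank 5.

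After the knockdown 9 of the 15 tested collagen genes were higher and 3 lower (limma, adjusted p under 0.05). Among all 11560 genes tested, 34.0% were higher and 24.7% lower, 58.6% in either direction. The 2 groups of libraries did not overlap in 13 of the 15, against 63.7% of all genes. Their median log2 difference was 0.41, beside 0.05 over all genes. Without COL17A1, which had to differ to be tested, 8 of 14 were higher and 3 lower with a median of 0.31. An absolute log2 difference of at least 1 was reached by 2 of the 15, COL8A1 and COL4A1, against 5.23% of all genes. That count depended on the pseudocount: with 0.1 in place of 1, COL9A2 at 1.29 and COL17A1 at 1.06 reached it too, 4 of the 15 against 8.70% of all genes. The split depended on the scaling and the block: quantile normalization gave 8 higher and 5 lower, and a fit with the replicate number as a block gave 9 higher and 6 lower. Of all 11560 genes, 3354 were then higher and 3495 lower with quantile normalization, and 4946 and 3846 with the block. The reported fit gave 3926 and 2851. Without siControl 1 there were 9 higher and 5 lower, beside 3998 higher and 2835 lower of 11654 genes. All 15 genes had the same direction between the libraries numbered 1 as between those numbered 2 and 3.

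**Figure D2:**
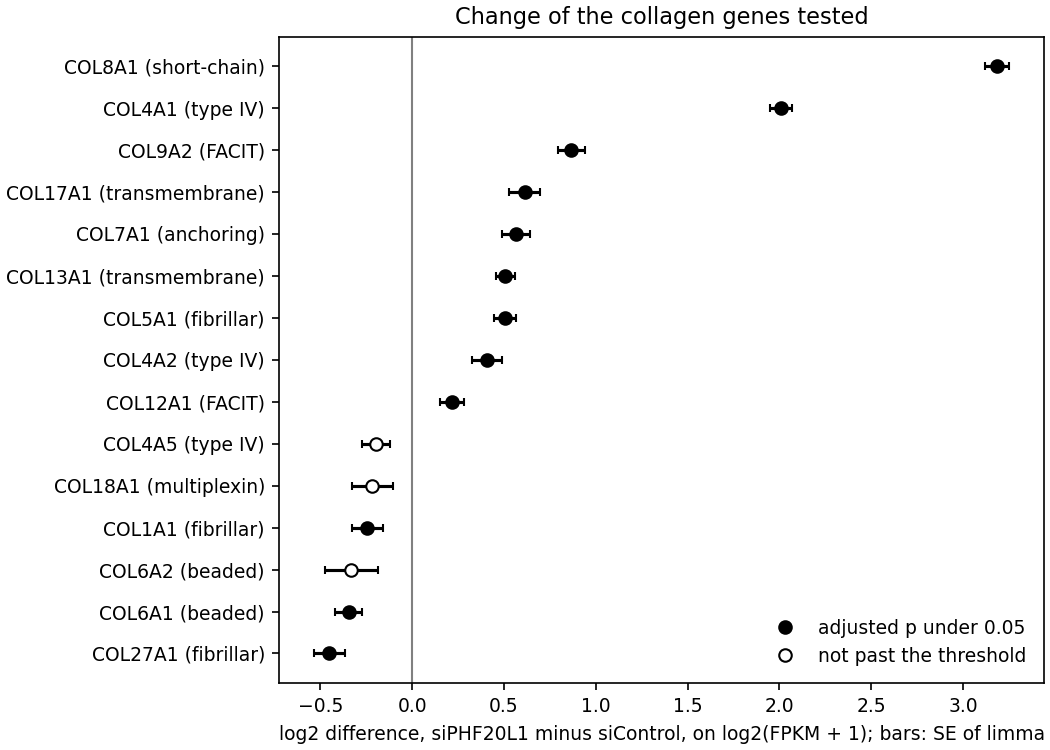
Log2 difference of each tested collagen gene, siPHF20L1 minus siControl on log2(FPKM + 1), with the SE of limma as bars; filled points passed an adjusted p of 0.05 and open points did not. COL8A1 at 3.19 and COL4A1 at 2.01 stand apart from the other 13 genes, which lie between -0.45 and 0.87.

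COL8A1 (Entrez 1295) encodes a chain of type VIII collagen, a short-chain collagen of vascular and corneal matrix. It was at 2.81, 2.65 and 2.98 FPKM in siControl and at 34.71, 32.56 and 33.77 FPKM in siPHF20L1. Every siPHF20L1 library lay far above every siControl library, and the spread within either group was small beside the gap. The mean rose 11.97-fold, from 2.81 ± 0.165 to 33.7 ± 1.08 FPKM (log2 difference of 3.19 with SE 0.065, limma adjusted p = 6.85e-08). For number 1 alone the log2 difference was 3.23, and for numbers 2 and 3 it was 3.16. COL8A2, which encodes the other chain of type VIII collagen, averaged 0.137 FPKM in siControl and 0.177 FPKM in siPHF20L1, between 0.11 and 0.24 FPKM in all libraries. COL10A1, the short-chain collagen of hypertrophic cartilage, had 0.12, 0.12 and 0.14 FPKM in siControl and 0.05, 0.05 and 0 FPKM in siPHF20L1, about 7 or 8 against 0 to 3 fragments. These 2 genes were under the filter and have no test, so the short-chain class consisted in practice of COL8A1.

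The type IV genes come as head-to-head pairs, and COL4A1 and COL4A2 encode the chains of the common basement membrane heterotrimer, which holds 2 COL4A1 chains and 1 COL4A2 chain. COL4A1 (Entrez 1282) was at 6.72, 6.94 and 6.33 FPKM in siControl and at 29.55, 29.57 and 30.27 FPKM in siPHF20L1. The groups were far apart, and the mean rose 4.47-fold from 6.66 ± 0.309 to 29.8 ± 0.410 FPKM (log2 difference of 2.01 with SE 0.060, limma adjusted p = 2.10e-07). COL4A2 (Entrez 1284) was at 40.33, 46.28 and 45.66 FPKM in siControl and at 52.96, 61.6 and 61.86 FPKM in siPHF20L1. The groups did not overlap, the library numbered 1 was the lowest of each, and the mean rose 1.33-fold from 44.1 ± 3.27 to 58.8 ± 5.07 FPKM (log2 difference of 0.41 with SE 0.081, limma adjusted p = 0.00258). The antisense gene COL4A2-AS2 did not exceed 0.08 FPKM.

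The ratio of COL4A1 to COL4A2 was taken in each library. It was 0.167, 0.150 and 0.139 in siControl and 0.558, 0.480 and 0.489 in siPHF20L1 libraries, a mean of 0.152 ± 0.014 against 0.509 ± 0.043. The groups did not overlap, with a log2 difference of the ratio of 1.75 and an exact two-sided permutation p of 0.1, the smallest that 3 against 3 libraries allow (0.2 adjusted over the 2 ratios tested). The protein trimer holds more COL4A1 than COL4A2 chains, while the transcripts of COL4A2 outnumbered those of COL4A1 per length in all 6 libraries.

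COL4A1 and COL4A2 start on opposite strands with a short stretch between them, which is shown because both members rose and by unequal amounts. In RefSeq's GRCh38.p14 promoter table, the stretch between their starts is chr13:110307158-110307283, 126 bases with a GC content of 80.2%. On the plus strand, with the searched motifs CCAAT, CCCTCCCC and GGGCGG in capitals and the COL4A1 start on the left, it reads as follows.
COL4A1 to COL4A2: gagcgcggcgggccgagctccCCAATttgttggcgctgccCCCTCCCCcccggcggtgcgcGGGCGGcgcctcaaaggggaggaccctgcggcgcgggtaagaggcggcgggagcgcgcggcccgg
The 3 words do not overlap and begin at bases 22, 41 and 62 from the COL4A1 side, and TATAAA was not found in the stretch. Both strands were searched. In the 250 bases before the start of 27305 RefSeq promoters, 33.0% held CCAAT, 42.3% GGGCGG, 11.96% CCCTCCCC and 11.1% TATAAA. Of the 15 expressed collagen genes 12 had an entry in the table, and of these 4 held CCAAT, 9 GGGCGG, 6 CCCTCCCC and 4 TATAAA. A match is a string of letters and no measured binding site. COL8A1, COL1A1 and COL6A1 had no entry.

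The remaining type IV genes were low. COL4A5 (Entrez 1287), the chain whose loss causes X-linked Alport nephropathy, was at 1.43, 1.45 and 1.43 FPKM in siControl and at 1.04, 1.07 and 1.28 FPKM in siPHF20L1. The groups did not overlap, but the log2 difference of -0.20 (SE 0.077) missed the threshold (limma, adjusted p = 0.0555). The threshold was passed with the replicate block (limma, adjusted p = 0.0453), with no filter (0.0434), with quantile normalization (0.00420) and with median-ratio size factors (0.0287). COL4A4 averaged 0.183 FPKM in siControl and 0.250 FPKM in siPHF20L1 with overlapping ranges, its glomerular partner COL4A3 did not exceed 0.05 FPKM, and COL4A6 did not exceed 0.09 FPKM.

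**Figure D3:**
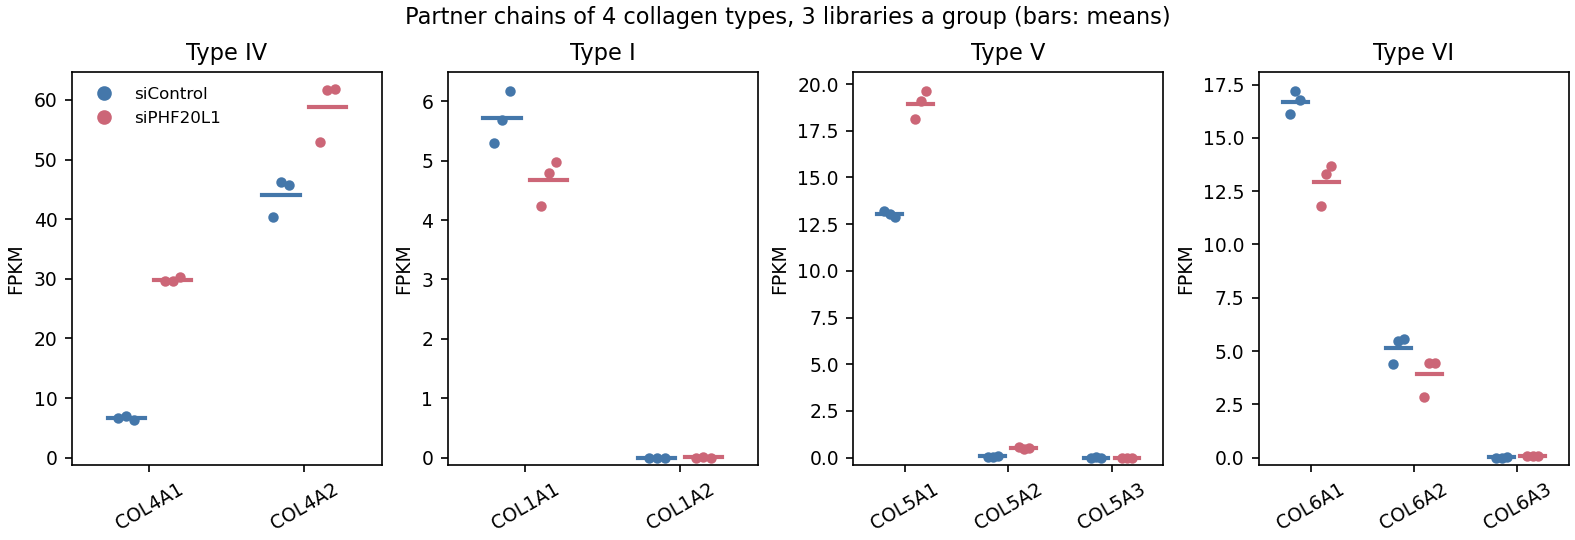
FPKM of the partner chains of types I, IV, V and VI in each library, with a bar at each group mean. COL4A1 approaches COL4A2 in the siPHF20L1 libraries, while COL1A2, COL5A2 and COL6A3 stay below 1 FPKM beside their partners in both groups.

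Among the 11 fibrillar genes 3 were expressed, and 1 rose and 2 fell. COL5A1 (Entrez 1289), a chain of type V collagen, which sets the diameter of type I fibrils, was at 13.18, 13.07 and 12.87 FPKM in siControl and at 18.12, 19.1 and 19.65 FPKM in siPHF20L1. These values do not overlap, and the mean rose 1.45-fold from 13.04 ± 0.157 to 19.0 ± 0.775 FPKM (log2 difference of 0.51 with SE 0.059, limma adjusted p = 0.000129). Its usual partner COL5A2 was at 0.06, 0.03 and 0.11 FPKM in siControl and at 0.55, 0.45 and 0.5 FPKM in siPHF20L1. By the estimated depth these correspond to about 7, 4 and 14 against 66, 56 and 62 fragments. COL5A2 thus lay higher in every siPHF20L1 library, with means of 0.067 and 0.5 FPKM, but under the filter, so that it has no test and the ratio of these chains was not tested either.

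COL1A1 (Entrez 1277), the major chain of type I collagen, was at 5.3, 5.68 and 6.18 FPKM in siControl and at 4.24, 4.8 and 4.98 FPKM in siPHF20L1. The groups did not overlap, although the lowest siControl and the highest siPHF20L1 library were close. The mean fell 1.22-fold from 5.72 ± 0.441 to 4.67 ± 0.386 FPKM (log2 difference of -0.24 with SE 0.084, limma adjusted p = 0.0332). This call was lost with no filter (limma, adjusted p = 0.0615), with the libraries numbered 2 and 3 averaged (0.130) and without siControl 2 (0.0804), siControl 3 (0.121), siPHF20L1 1 (0.0873) or siPHF20L1 2 (0.0629).

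COL27A1 (Entrez 85301), a fibrillar collagen best known from cartilage, was at 4.59, 3.99 and 4.32 FPKM in siControl and at 3.14, 2.61 and 2.89 FPKM in siPHF20L1. All siPHF20L1 libraries were below all siControl libraries, and the mean fell 1.49-fold from 4.30 ± 0.301 to 2.88 ± 0.265 FPKM (log2 difference of -0.45 with SE 0.083, limma adjusted p = 0.00168). Beyond COL5A2, the other 7 fibrillar genes (COL1A2, COL2A1, COL3A1, COL5A3, COL11A1, COL11A2 and COL24A1) did not exceed 0.16 FPKM.

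Of the multiplexins, COL18A1 was abundant and COL15A1 near 0. COL18A1 (Entrez 80781), the source of endostatin, was at 32.42, 37.9 and 40.19 FPKM in siControl and at 26.76, 33.55 and 34.6 FPKM in siPHF20L1. The groups overlapped and the library numbered 1 was the lowest of each, so that the log2 difference of -0.22 (SE 0.111) missed the threshold (limma, adjusted p = 0.125). The threshold was passed with the replicate block (limma, adjusted p = 0.000257), without siControl 1 (0.0351) and in the libraries numbered 2 and 3 alone (0.00376). COL15A1 was at 0.08, 0.05 and 0.03 FPKM in siControl and at 0.14, 0.12 and 0.12 FPKM in siPHF20L1, too low for the test.

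Of the 5 type VI genes 2 were expressed, and 1 of them fell. COL6A1 (Entrez 1291), 1 of the 3 chains of the type VI heterotrimer, was at 16.1, 17.22 and 16.76 FPKM in siControl and at 11.79, 13.33 and 13.68 FPKM in siPHF20L1. The groups did not overlap, and the mean fell from 16.7 ± 0.563 to 12.9 ± 1.01 FPKM (log2 difference of -0.35 with SE 0.072, limma adjusted p = 0.00309). COL6A2 (Entrez 1292), the second chain, was at 4.37, 5.46 and 5.57 FPKM in siControl and at 2.86, 4.45 and 4.43 FPKM in siPHF20L1. Here the groups overlapped and the log2 difference of -0.33 (SE 0.145) did not pass (limma, adjusted p = 0.0790). It passed with the replicate block (limma, adjusted p = 0.000969), with quantile normalization (0.0491), without siControl 1 (0.0352) and in the libraries numbered 2 and 3 alone (0.00567). The ratio of COL6A1 to COL6A2 was 3.28 ± 0.355 in siControl and 3.40 ± 0.626 in siPHF20L1 libraries, with a log2 difference of 0.04 (exact two-sided permutation p = 0.9, adjusted p = 0.9). COL6A3, the third chain, was at 0, 0 and 0.02 FPKM in siControl and at 0.08, 0.09 and 0.08 FPKM in siPHF20L1. These libraries thus held hardly any transcript of the third type VI chain beside the first 2. COL6A5 and COL6A6 did not exceed 0.01 FPKM. The genes of no class above, COL26A1 and COL28A1, reached at most 0.04 FPKM.

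Both expressed FACIT genes were higher. COL9A2 (Entrez 1298), a chain of the cartilage collagen type IX, was at 1, 1.13 and 1.11 FPKM in siControl and at 2.66, 2.97 and 2.75 FPKM in siPHF20L1. The groups were well apart, and the mean rose 2.59-fold from 1.08 ± 0.070 to 2.79 ± 0.159 FPKM (log2 difference of 0.87 with SE 0.075, limma adjusted p = 2.39e-05). The other type IX chains were not expressed at 1 FPKM: COL9A1 was at 0 in every library and COL9A3 averaged 0.480 FPKM in siControl and 0.383 FPKM in siPHF20L1 with overlapping ranges. Of the chondrocyte markers, SOX9 averaged 6.69 and 8.23 FPKM in the 2 groups, MATN3 2.73 and 1.13 FPKM, and ACAN did not exceed 0.01 FPKM. COL12A1 (Entrez 1303), a fibril-associated collagen of tendon and stroma, was at 20.84, 18.62 and 18.78 FPKM in siControl and at 23.7, 21.98 and 22.39 FPKM in siPHF20L1. The gap between the groups was narrow, and the mean rose from 19.4 ± 1.24 to 22.7 ± 0.898 FPKM (log2 difference of 0.22 with SE 0.066, limma adjusted p = 0.0206). That call was lost with quantile normalization (limma, adjusted p = 0.0574), median-ratio size factors (0.0630), the libraries numbered 2 and 3 averaged (0.142) and without siControl 2 (0.0821), siControl 3 (0.0741) or siPHF20L1 3 (0.0552). COL16A1 averaged 0.247 FPKM in siControl and 0.653 FPKM in siPHF20L1 without overlap, under the filter. COL14A1, COL19A1, COL20A1, COL21A1 and COL22A1 did not exceed 0.03 FPKM.

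COL7A1 (Entrez 1294), the anchoring fibril collagen, was at 3.02, 3.03 and 3.18 FPKM in siControl and at 4.57, 5.19 and 5.35 FPKM in siPHF20L1. The groups did not overlap, and the mean rose 1.64-fold from 3.08 ± 0.090 to 5.04 ± 0.412 FPKM (log2 difference of 0.56 with SE 0.077, limma adjusted p = 0.000326).

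Both expressed transmembrane collagens were higher. COL13A1 (Entrez 1305), found at cell junctions and the neuromuscular synapse, was at 34.55, 35.84 and 34.37 FPKM in siControl and at 48.8, 50.59 and 50.85 FPKM in siPHF20L1. Replicates lay close together and the groups far apart, with a 1.43-fold rise from 34.9 ± 0.802 to 50.1 ± 1.12 FPKM (log2 difference of 0.51 with SE 0.052, limma adjusted p = 5.94e-05). COL17A1 (Entrez 1308), the hemidesmosome collagen of basal epithelia, was at 0.87, 0.74 and 0.68 FPKM in siControl and at 1.61, 1.89 and 1.59 FPKM in siPHF20L1. All siPHF20L1 libraries were above all siControl libraries (log2 difference of 0.61 with SE 0.083, limma adjusted p = 0.000316), and the gene was tested only because they reached 1 FPKM. COL23A1 was at 0 throughout and COL25A1 did not exceed 0.02 FPKM. Of the epithelial markers EPCAM, CDH1, KRT8 and KRT18, 3 of 4 exceeded 1 FPKM, with summed levels of 292.71 to 346.12 FPKM in siControl and 316.59 to 361.07 FPKM in siPHF20L1 libraries. Nearly all of that sum was KRT8 and KRT18, which did not pass the threshold (log2 difference 0.16 and -0.03, limma, adjusted p = 0.136 and 0.793). Of these markers only EPCAM passed. It rose, with 2.25, 2.02 and 2.33 FPKM in siControl and 5.13, 4.27 and 3.54 FPKM in siPHF20L1 (log2 difference 0.72, limma, adjusted p = 0.000670). CDH1 did not exceed 0.45 FPKM and was under the filter. The part of these markers in the difference of COL17A1 was not tested.

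Summed over all 44 genes, collagen transcripts amounted to 189.01, 201.69 and 201.97 FPKM in siControl and to 268.81, 287.76 and 293.06 FPKM in siPHF20L1. The means were 197.6 ± 7.40 and 283.2 ± 12.7 FPKM, a ratio of 1.43. Most of the net difference of 85.7 FPKM came from a few genes. COL8A1 made up 36.0% of it, COL4A1 27.0%, COL13A1 17.7%, COL4A2 17.2% and COL5A1 6.91%. COL6A1 took away 3.76 FPKM, and COL18A1, whose groups overlapped and which did not pass the threshold, 5.2 FPKM. Without COL8A1 the ratio was 1.28, and without COL8A1 and COL4A1 it was 1.17.

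**Figure D4:**
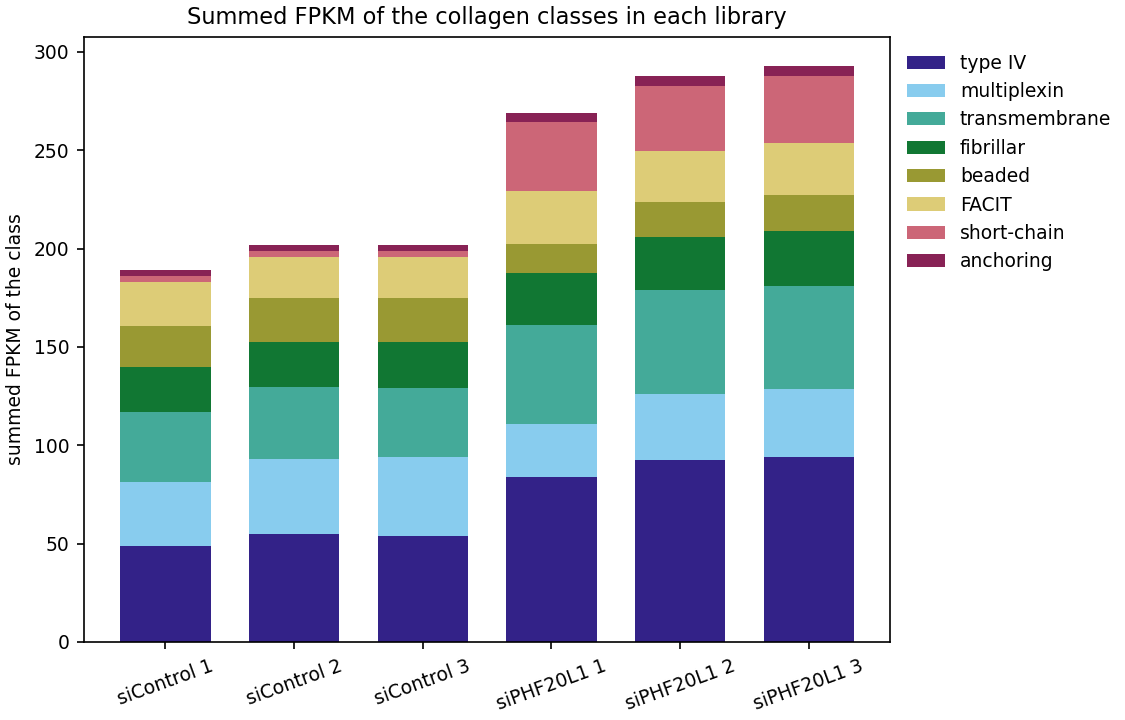
Summed FPKM of each collagen class, stacked for each of the 6 libraries, without the 2 genes of no class (at most 0.04 FPKM); beaded stands for type VI and anchoring for type VII. The short-chain band, which is COL8A1 almost alone, grows from about 3.08 to 33.9 FPKM and the type IV band from 52.4 to 90.1 FPKM. The type VI band is smaller in siPHF20L1 libraries. The multiplexin band has a lower mean there, but its libraries overlap between the groups.

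The make-up of the collagen transcripts differed accordingly. Type IV genes held 26.5% ± 0.705 of the summed FPKM in siControl and 31.8% ± 0.508 in siPHF20L1 libraries, the largest class in both. Short-chain genes went from 1.56% ± 0.088 to 11.99% ± 0.880. Multiplexins went from 18.6% ± 1.37 to 11.2% ± 1.02, and type VI genes from 11.1% ± 0.211 to 5.97% ± 0.419. Fibrillar genes held 11.8% ± 0.466 and 9.59% ± 0.134, although their summed FPKM was 23.3 ± 0.316 in siControl and 27.2 ± 1.00 in siPHF20L1 libraries. Transmembrane genes held 18.1% ± 0.690 and 18.3% ± 0.432, shares whose difference was within the SD. The shares of 1 library add up to the whole, so a larger share of 1 class lowers the others, and they were not tested.

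Fibroblasts are a main source of fibrillar collagen in tissue, so their markers were read beside these genes. Of 7 listed fibroblast markers 5 could be analysed and 1 exceeded 1 FPKM. Their summed level was 1.36 to 1.56 FPKM in siControl and 1.68 to 2.08 FPKM in siPHF20L1 libraries, nearly all of it PDGFRB. POSTN was at 0 in all libraries, and PDGFRA, THY1 and FAP did not exceed 0.06 FPKM. The 4 endothelial markers summed to 1.58 to 1.87 and 1.80 to 1.93 FPKM, with KDR alone above 1 FPKM and CDH5 and VWF at no more than 0.06 FPKM. The leukocyte markers summed to 1.95 to 2.17 and 1.52 to 2.17 FPKM. The part of such cells in the differences was not tested.

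Collagen chains are hydroxylated, glycosylated and folded in the endoplasmic reticulum, exported in large carriers, trimmed outside the cell and crosslinked by lysyl oxidases. Of 39 genes listed for these steps 32 were tested, of which 19 were higher, 8 lower and 5 not past the threshold (limma, adjusted p under 0.05), with a median log2 difference of 0.28 beside 0.05 over all genes. Of all genes 34.0% were higher and 24.7% lower, so the share of lower genes in the list was near that background. The largest rises were those of KLHL12, the ubiquitin ligase adaptor for large COPII coats that carry procollagen, from 8.82 ± 0.462 to 19.9 ± 0.619 FPKM (log2 difference 1.09, limma, adjusted p = 3.24e-06), of the prolyl 3-hydroxylase P3H2 from 31.5 ± 1.68 to 64.7 ± 2.20 FPKM (1.02, 3.16e-06), and of the prolyl isomerase FKBP10 from 5.35 ± 0.348 to 11.0 ± 1.03 FPKM (0.92, 3.44e-05). P3H2 acts mainly on basement membrane collagen. SERPINH1, the collagen chaperone HSP47, rose from 95.2 ± 8.60 to 165.9 ± 17.2 FPKM (limma, adjusted p = 0.000136), and the prolyl 4-hydroxylase subunit P4HA1 was at 30.02 and 30.75 FPKM without passing. SERPINH1 and P4HA1 were chosen after their values were seen. PCOLCE2, an enhancer of propeptide cleavage, was among the 19 and reached the filter only in siPHF20L1 libraries.

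Among the genes for crosslinking, the largest fall of the list was that of the lysyl oxidase-like enzyme LOXL2, at 198.21, 212.26 and 215.69 FPKM in siControl and 68.42, 73.08 and 73.17 FPKM in siPHF20L1. The groups were far apart (log2 difference of -1.53 with SE 0.058, limma adjusted p = 5.31e-07). LOXL1 fell from 23.0 ± 3.76 to 15.2 ± 3.03 FPKM (log2 difference -0.57, limma, adjusted p = 0.0128), and the telopeptide lysyl hydroxylase PLOD2 from 51.8 ± 3.45 to 36.4 ± 2.14 FPKM (-0.50, 0.000354). The other lysyl hydroxylases listed rose, PLOD1 from 49.3 ± 3.93 to 73.5 ± 4.34 FPKM (0.57, 0.000241) and PLOD3 from 39.3 ± 4.16 to 47.3 ± 4.16 FPKM (0.26, 0.0373). LOXL4 fell from 7.28 ± 0.376 to 4.92 ± 0.267 FPKM (-0.48, 0.000559) and LOXL3 rose from 1.46 ± 0.123 to 2.20 ± 0.245 FPKM (0.38, 0.00500), while LOX itself was at 17.5 and 17.8 FPKM and did not pass (limma, adjusted p = 0.781). LOXL4, LOXL3, LOX, PLOD1 and PLOD3 were also named after their values were seen. Of the 5 lysyl oxidase genes, 3 thus fell, 1 rose and 1 did not pass.

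**Figure D5:**
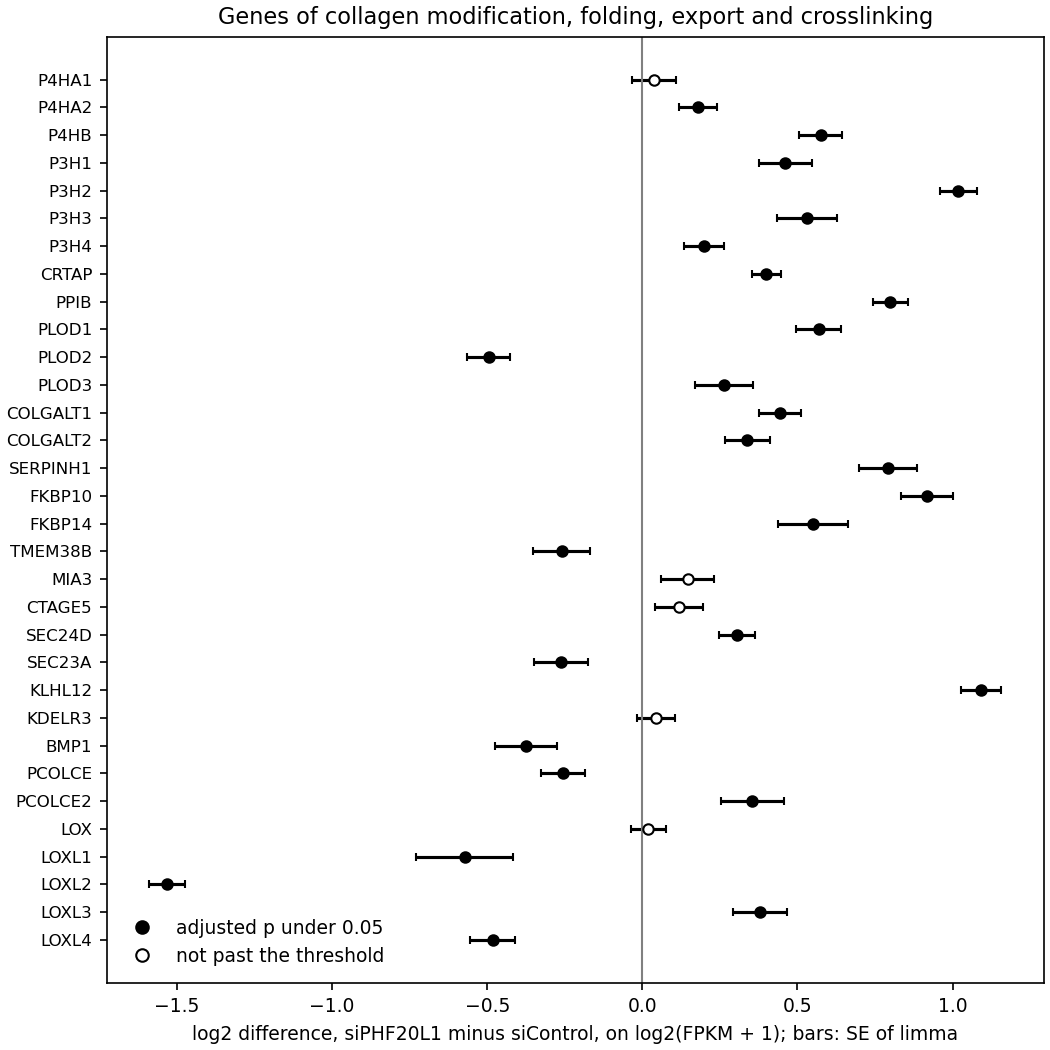
Log2 difference of the 32 tested genes of collagen modification, folding, export and crosslinking, siPHF20L1 minus siControl on log2(FPKM + 1), with the SE of limma as bars; filled points passed an adjusted p of 0.05 and open points did not. KLHL12 at 1.09 and LOXL2 at -1.53 mark the ends of the range.

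Collagen receptors bind the chains at the cell surface. Of 16 listed 13 were tested, with 7 higher, 1 lower, 5 not past the threshold (limma, adjusted p under 0.05) and a median log2 difference of 0.37 beside 0.05 over all genes. The 8 of 13 called in either direction were near the 58.6% of all genes, of which 34.0% were higher and 24.7% lower. With the replicate block 8 were higher and 2 lower, and the same counts were found without siPHF20L1 1. Of all genes, 4946 of 11560 were then higher and 3846 lower with the block. Without siPHF20L1 1 these were 3965 and 3008 of 11628. The heparan sulfate proteoglycans SDC4 and SDC1 both rose, SDC4 from 38.7 ± 1.57 to 76.5 ± 1.69 FPKM (log2 difference 0.97, limma, adjusted p = 2.67e-06) and SDC1 from 43.2 ± 1.56 to 73.9 ± 1.47 FPKM (0.76, 7.71e-06). The integrin chain ITGA1, which binds type IV collagen, rose from 4.64 ± 0.938 to 7.68 ± 0.860 FPKM (0.63, 0.00260). The single lower gene was ANTXR2, a receptor that takes up type VI collagen, which fell from 29.5 ± 3.79 to 19.5 ± 0.705 FPKM (-0.56, 0.000746). ITGA10 was among the 7, and reached the filter only in siPHF20L1 libraries. It thus had to differ to be tested. Without ITGA10 the median would lie between the 0.18 of ANTXR1 and the 0.37 of ITGB1.

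Of 19 genes listed for collagen breakdown, which include the inhibitors TIMP1, TIMP2 and TIMP3, 11 were tested. Of these 6 were higher, 3 lower and 2 not past the threshold (limma, adjusted p under 0.05), with a median log2 difference of 0.25 beside 0.05 over all genes. The inhibitor TIMP2 was among the 6, from 221.8 ± 1.79 to 263.8 ± 2.04 FPKM (log2 difference 0.25, limma, adjusted p = 0.00246). TIMP1, at 175.4 and 153.9 FPKM, was among the 2 not past the threshold (limma, adjusted p = 0.180). Among all genes 34.0% were higher and 24.7% lower, so the share of lower genes was again near the background. The membrane collagenase MMP14 rose from 66.6 ± 2.08 to 107.6 ± 5.34 FPKM (log2 difference 0.68, limma, adjusted p = 2.20e-05), and the interstitial collagenase MMP1 from 2.05 ± 0.117 to 3.88 ± 0.110 FPKM (0.68, 7.37e-05). MMP16, another membrane metalloproteinase, was at 0.793 ± 0.166 and 1.72 ± 0.147 FPKM (0.60, 0.000600) and reached the filter only in siPHF20L1 libraries. MMP16 thus had to differ to be tested, and it is in the count and the median given above. Without MMP16 the median would lie between the -0.09 of CTSK and the 0.25 of TIMP2. Of the 4 cathepsins listed 2 fell, CTSB from 28.6 ± 2.56 to 13.4 ± 0.673 FPKM (-1.03, 1.14e-05) and CTSS from 3.64 ± 0.222 to 1.70 ± 0.357 FPKM (-0.79, 0.000255). CTSL rose from 39.96 ± 1.93 to 55.6 ± 1.86 FPKM (0.47, 0.000190), and CTSK, at 1.86 and 1.68 FPKM, did not pass (limma, adjusted p = 0.399). CTSL, CTSK, TIMP1 and TIMP2 were named after their values were seen. The plasminogen activator PLAU fell from 115.7 ± 7.77 to 77.3 ± 5.34 FPKM (-0.58, 0.000210). MMP2, MMP9 and MMP13, 3 other enzymes that cut collagen or gelatin, did not exceed 0.1 FPKM. MMP3, also under the filter, was at 0.03, 0.09 and 0.09 FPKM in siControl and at 0.4, 0.71 and 0.48 FPKM in siPHF20L1. MMP2, MMP3, MMP9 and MMP13 were named after their values were seen.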

How the data were processed

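RNA sequencing was done on 6 libraries of MDA-MB-231. Poly-A RNA was selected and a strand-specific Illumina kit used, per the labels' protocols. Tools named, without a role, in the submitters' processing notes are TopHat2 2.1.1, Bowtie 0.12.2 and HTSeq 0.6.0, and the build is GRCh37. Per the file headers the deposited values are FPKM, 1 per gene and library, written to 2 decimals. The sources used here do not say how the authors computed them or whether strand was used, so a gene and its antisense partner may share reads. Symbols turned into dates (26 genes) were restored through the Entrez identifier, and 17419 of 17452 identifiers were in the reference table. The FPKM of a library summed to between 395251 and 416138. Depth was read from the steps of low values of genes with transcripts under 1500 nt, searched between 5000000 and 40000000 fragments.

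Genes at 1 FPKM or more in at least 3 libraries were tested with limma 3.58.1 (R 4.3.3), with an intensity trend and no block, on log2(FPKM + 1), which understates changes of low genes. P-values were two-sided, Benjamini-Hochberg adjusted over all 11560 genes, threshold 0.05. The procedure was tested on simulated data with few changed genes and independent noise between libraries, unlike the data here. That run therefore does not give the error rate of these calls. The 14 alternatives covered pseudocount 0.1, no filter, 3 scalings, a replicate block, leaving out each library (then 2 libraries sufficed for the filter where a group had 2 left), and the libraries numbered 2 and 3 alone or averaged.

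Replicate numbers come from the sample titles. Deviations from the group means of same-numbered libraries correlated at 0.73, 0.44 and 0.42 over genes, while siControl 3 with siPHF20L1 2 gave 0.49. For siControl 2 with siPHF20L1 3 the value was 0.31. Pairs of a library numbered 1 with one numbered otherwise were negative. These were -0.63 and -0.50 for siControl 1 with siPHF20L1 2 and 3, and -0.49 and -0.59 for siPHF20L1 1 with siControl 2 and 3.

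Named are all expressed collagen genes, other collagen genes at 0.2 FPKM or more in any library with their means, and the 3 largest rises and falls past the threshold in each list. The members and lists were chosen with earlier results of these data known. Gene positions in the files' build are not given, since no genome of it was used here. Coding sequences are from GENCODE 29 and promoters from RefSeq, GRCh38.p14. Python 3.11.15 with pandas 2.3.3 and matplotlib 3.10.9 served for the rest.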

Additional observations from a re-analysis of the deposited data

How the results depend on the processing

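Over the 14 alternatives the 15 tested collagen genes gave 210 comparisons with the reported fit. Of these 187 kept direction and side of the threshold, 12 fell short of it, 11 newly passed it and 0 reversed. The 17 genes named by rule from the lists, with PHF20L1, gave 238 comparisons, and all 238 kept both. The changes among these 15 were those of COL1A1, COL12A1, COL4A5, COL18A1 and COL6A2. With no filter, collagen genes too low for the reported fit were tested too. Then 13 collagen genes were higher and 4 lower, against 9 and 3 as reported. Of all 16664 genes tested without the filter, 4191 were higher and 2788 lower, against 3926 and 2851 of 11560 as reported. The reported 3 lower collagen genes became 5 with quantile normalization, 6 with the replicate number as a block, 5 with the libraries numbered 2 and 3 alone, and 2 to 5 when 1 library was left out (5 without siControl 1). Lower genes of the biosynthesis list went from 8 to 5 with the libraries numbered 2 and 3 averaged. Lower genes of the receptor list went from 1 to 2 with quantile normalization, the block and the libraries numbered 2 and 3 alone, and were 1 to 2 with 1 library left out (2 without siPHF20L1 1). The lower genes among all tested moved too, from 2851 to 3495 with quantile normalization and 3846 with the block. They were 3596 with the libraries numbered 2 and 3 alone, 1946 with these averaged, and 2335 to 3008 with 1 library left out. Each of these fits tested 11560 to 11675 genes. The cause was not tested. The replicate block moved COL4A5, COL18A1 and COL6A2 past the threshold and changed no other call among the collagen genes. The median log2 difference of all genes was 0.05 as reported, -0.005 with median-ratio size factors, -0.02 with quantile normalization and 0.07 with equal sums. At this depth genes under 0.1 FPKM rest on few fragments, and a listed 0 does not show absence.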

Other observations

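The 2 nearest listed genes on each side of every expressed collagen gene were read in the gene order of RefSeq's GRCh38.p14, after the values of the collagen genes were seen. All 4 beside COL8A1 were higher in siPHF20L1 libraries. DCBLD2, a neuropilin-like membrane protein, was at 10.32, 8.69 and 8.39 FPKM in siControl and at 31.34, 24.82 and 26.75 FPKM in siPHF20L1 libraries (log2 difference 1.497, SE 0.103, limma, adjusted p = 7.07e-06). CMSS1 rose from 23.0 ± 0.297 to 44.3 ± 3.20 FPKM (log2 difference 0.92, limma, adjusted p = 7.94e-06) and FILIP1L from 1.45 ± 0.187 to 3.19 ± 0.286 FPKM (0.78, 0.000117). CMSS1 and FILIP1L overlap on opposite strands, so their reads may be shared and both values are uncertain. ST3GAL6, a sialyltransferase, rose from 2.92 ± 0.402 to 3.80 ± 0.452 FPKM (0.30, 0.0352). Of the 45 other genes beside the remaining 14 expressed collagen genes, leaving out collagens, 26 were tested, of which 13 were higher, 5 lower and 8 not past the threshold. Among all genes 34.0% were higher and 24.7% lower. The 4 genes were singled out after their values were seen, and whether they stand apart from the others was not tested. Beside COL4A1 and COL4A2, RAB20 fell from 14.1 to 5.79 FPKM (log2 difference -1.15, limma, adjusted p = 1.99e-05), while IRS2 was at 6.91 and 8.08 FPKM and did not pass the threshold.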
